A study of Mus musculus with 11 samples.

Results

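The genes described here, Dlg4, Homer1, Cntn1, Icam5 and Psd, encode proteins of the postsynaptic density and adhesion molecules of neuronal membranes. They were taken by gene symbol: every probe set annotated with 1 of these 5 symbols was used, which gave 6 of the 12488 probe sets on the array and 5 of the 8252 genes named there. Homer1 has 2 probe sets and the other genes have 1 each. None of the 6 also carries the symbol of a further gene. Messenger RNA was measured in whole brains of 11 untreated C57BL/6J mice, 1 array per mouse, to compare mice without the β4 nicotinic acetylcholine receptor subunit with wild-type littermates. The 5 null mice were 2 males of 9 weeks and 3 females of 7, 8 and 8 weeks, and their animal numbers all begin with the letters B4. The 6 wild-type mice were 4 males and 2 females. Wild-type mice 1, 2 (males of 9 and 8 weeks) and 3 (a female of 7 weeks) have B4 numbers too. Wild-type mice 4, 5 and 6 (male, female and male, all 6 weeks old) have numbers that begin with LT. The labels do not say what LT stands for. The β4 subunit was absent from every cell of the null mice throughout life, so the design does not separate an effect in adult brain from one in development. The mice of a group are separate animals.

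The arrays differed in ways that bear on the values below. The 2 male null arrays had the highest median signals (56.3 and 58.3, against 43.6 to 49.75 in the other 9) and the lowest 3′ to 5′ ratios of Gapdh, a control read at both ends of its transcript. Male null brains 1 and 2 had ratios of 0.859 and 0.798, and the other 9 brains 2.19 to 5.92. Null brains averaged 2.04 ± 1.21 (SD, n = 5), against 4.24 ± 0.862 (SD, n = 6) for wild-type brains (two-sided exact permutation p = 0.00433). The spiked-in control transcripts BioB and BioC followed the letters of the animal numbers: their ratio was 1.05 to 1.08 on the 3 LT arrays and 0.405 to 0.484 on the 8 B4 arrays. Neuronal, astrocyte, oligodendrocyte, microglial and endothelial or mural markers were all measured, and no marker on the array lay at the floor on every array. With 1 array per mouse, precision is limited by how many mice there are. In whole brain, fewer cells of a type and less RNA per cell cannot be told apart.

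Most excitatory synapses of the forebrain lie on dendritic spines, where receptors are held in a dense protein meshwork beneath the membrane. Dlg4 encodes PSD-95, the scaffold of that density that binds NMDA receptors and AMPA receptor auxiliary subunits through its PDZ domains. Homer1 encodes an adaptor that links group I metabotropic glutamate receptors to inositol trisphosphate receptors and to Shank scaffolds, and a short form induced by neuronal activity breaks these links. Cntn1 encodes contactin-1, a lipid-anchored adhesion molecule of axons and of myelin junctions. Icam5 encodes telencephalin, an adhesion molecule of the dendrites of forebrain neurons that is found on filopodia and shed as spines mature. Psd encodes EFA6A, a brain-rich exchange factor that activates the small GTPase Arf6, a regulator of membrane recycling, actin and spine form.

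The sequences before the start sites of Icam5 and Homer1 are shown because Icam5 had the largest difference between sets of brains among the 5 genes and Homer1 is known as an activity-induced gene. Each is the 250 bases upstream of the gene's first annotated start, read 5′ to 3′ on the gene's strand, from RefSeq on build GRCm38.p6. The Icam5 window is chr9:21031788-21032037 on the plus strand and the Homer1 window chr13:93303507-93303756 on the plus strand. Capitals mark matches on either strand to the cyclic AMP response half-site TGACG, the GC box GGGCGG, the CCAAT box CCAAT, the TATA box TATAAA and the E-box CACGTG.
Icam5: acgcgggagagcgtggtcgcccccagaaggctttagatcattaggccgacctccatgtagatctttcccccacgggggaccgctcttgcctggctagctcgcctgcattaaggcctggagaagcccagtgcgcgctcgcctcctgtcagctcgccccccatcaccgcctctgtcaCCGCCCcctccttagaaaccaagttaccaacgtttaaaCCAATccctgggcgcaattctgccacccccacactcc
Homer1: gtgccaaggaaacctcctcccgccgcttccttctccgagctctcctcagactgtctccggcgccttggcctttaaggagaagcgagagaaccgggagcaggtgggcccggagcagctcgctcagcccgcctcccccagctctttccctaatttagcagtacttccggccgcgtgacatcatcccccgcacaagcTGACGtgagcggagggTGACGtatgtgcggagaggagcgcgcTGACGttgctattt
The Icam5 sequence holds 1 GC box, read on the opposite strand, and 1 CCAAT box. The Homer1 sequence holds 3 TGACG half-sites and none of the other motifs. Over 32851 upstream windows of the same length, 17.8% held TGACG, 32.7% GGGCGG, 33.8% CCAAT, 12.4% TATAAA and 6.02% CACGTG. GC content was 61.6% for Icam5 and 62.4% for Homer1, against a median of 52.4% over these windows. The windows held 16 and 21 CpG dinucleotides, against a median of 6. These matches describe letters in the window and were not tested as binding sites.

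None of the 5 genes differed between null and wild-type brains at an adjusted p under 0.05 in limma, which called 2 of 7453 tested probe sets (0.0268%). At an unadjusted p under 0.05 the fit picked 1 of the 5 genes, Dlg4, beside 23.1% of all probe sets (13.4% higher and 9.69% lower in null brains). For none of the 5 did the null and wild-type brains separate without overlap, as they did for 1.09% of probe sets. The values are signals from MAS5, which merges the probes of a probe set into 1 number and brings all arrays to the same mean. Differences are log2 of that signal with the standard error (SE), sex being in the model, and signals under 3.1 were raised to that floor.

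**Figure D1:**
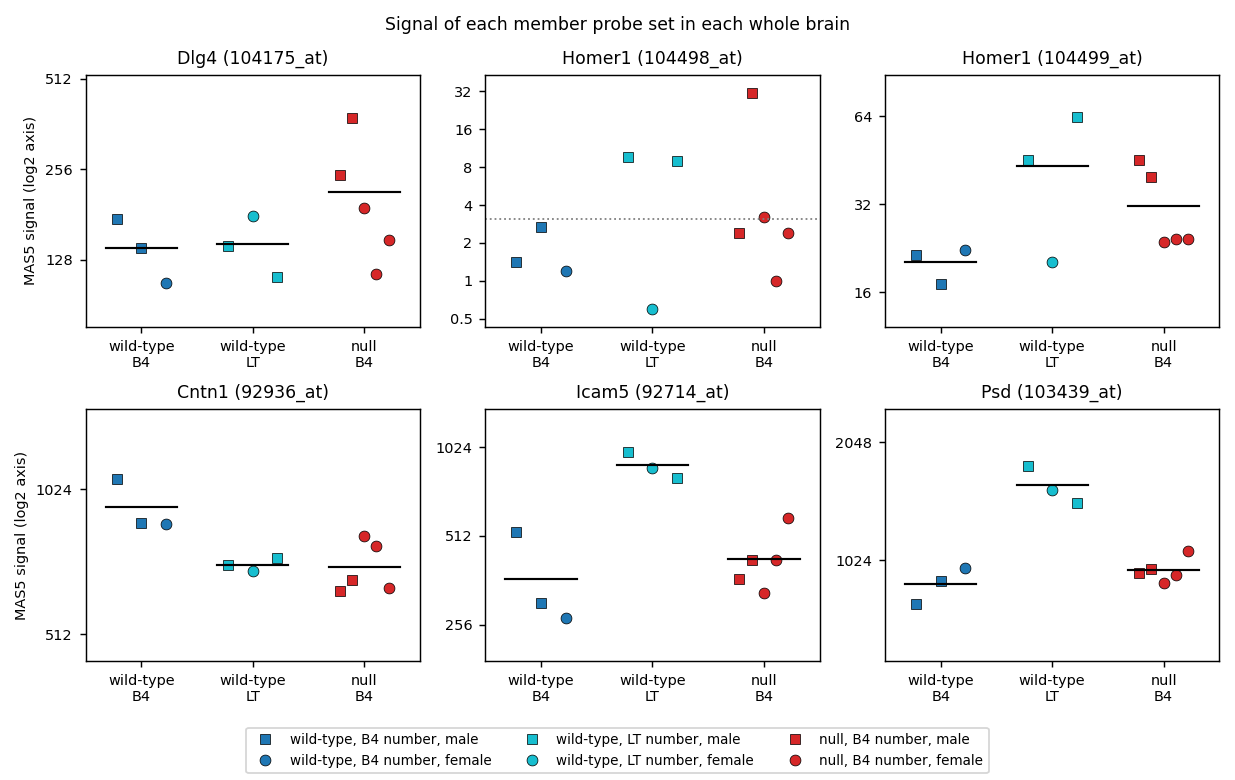
MAS5 signal (log2 axis) of each of the 6 probe sets in each brain, with wild-type brains split by the letters of the animal number. Squares are males and circles females, black bars are group means (not drawn for Homer1 104498_at), and the dotted line is the floor of 3.1; Icam5 and Psd stand highest in the 3 wild-type LT brains, and Dlg4 in the 2 male null brains.

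Dlg4, the PSD-95 scaffold gene (probe set 104175_at), had signals of 174.8, 139.8, 106.9, 142.6, 178.2 and 112.4 in wild-type brains 1 to 6. In the null brains it was 243.9 and 377.4 in the 2 males and 190.1, 114.8 and 148.5 in the 3 females. The 2 male null brains were the highest of all 11, and the female null brains lay within or just above the wild-type range. Wild-type brains averaged 142 ± 30.0 (SD, n = 6) and null brains 215 ± 103 (SD, n = 5). The log2 difference was 0.63 (SE 0.24, 95% confidence interval 0.11 to 1.15, limma adjusted p = 0.153), so the threshold was missed after adjustment.

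The Dlg4 difference rested on the male null brains. Without them it was 0.10 (SE 0.28, interval -0.50 to 0.70, limma adjusted p = 0.999), in a fit that called 0 of 7453 probe sets and had 3.53% at an unadjusted p under 0.05. In that fit, with sex in the model, a genotype difference is set by 3 null against 2 wild-type females. Within males Dlg4 rose by 1.11 in the null (SE 0.27, limma adjusted p = 0.00734), where 32.6% of all probe sets were called and 17.8% of all were called as higher in null. Dlg4 was the sole gene of the 5 called there. Within females it was 0.10 (SE 0.28), and 0 probe sets were called, with 4.13% at an unadjusted p under 0.05. The Dlg4 difference in females minus that in males was -1.01 (SE 0.39, limma adjusted p = 0.0987) and did not pass the threshold, which 15.9% of probe sets passed. At an unadjusted p under 0.05 this interaction picked Dlg4 alone of the 5, beside 30.9% of all probe sets.

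The same 2 brains had the low Gapdh ratio. With log2 of that ratio in the model the Dlg4 difference was 0.09 (limma adjusted p = 0.995). The ratio itself sets these 2 brains apart from the other 9, so that fit cannot separate the ratio from the brains, and nothing is read from it. The 11 of 12 neuron markers on the array had summed signals of 16840.7 and 17303.1 for the male null pair, against 11468.4 to 14978.8 for the other 9 (none of the 11 at the floor throughout). The sum of 11 microglial markers was also highest in that pair, at 2224.2 and 2599.0. It was 1813.5 to 2218.2 in wild-type and 1704.6 to 1972.4 in female null brains. The astrocyte, oligodendrocyte and endothelial or mural sums of the pair overlapped those of wild-type brains. The part of RNA length or of cell content in the Dlg4 signal was not tested further. Among mice with B4 numbers alone the Dlg4 difference was 0.75 (limma adjusted p = 0.0957). B4 mice hold a lone wild-type female, so nothing is read from the fit among them without the male null brains.

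**Figure D2:**
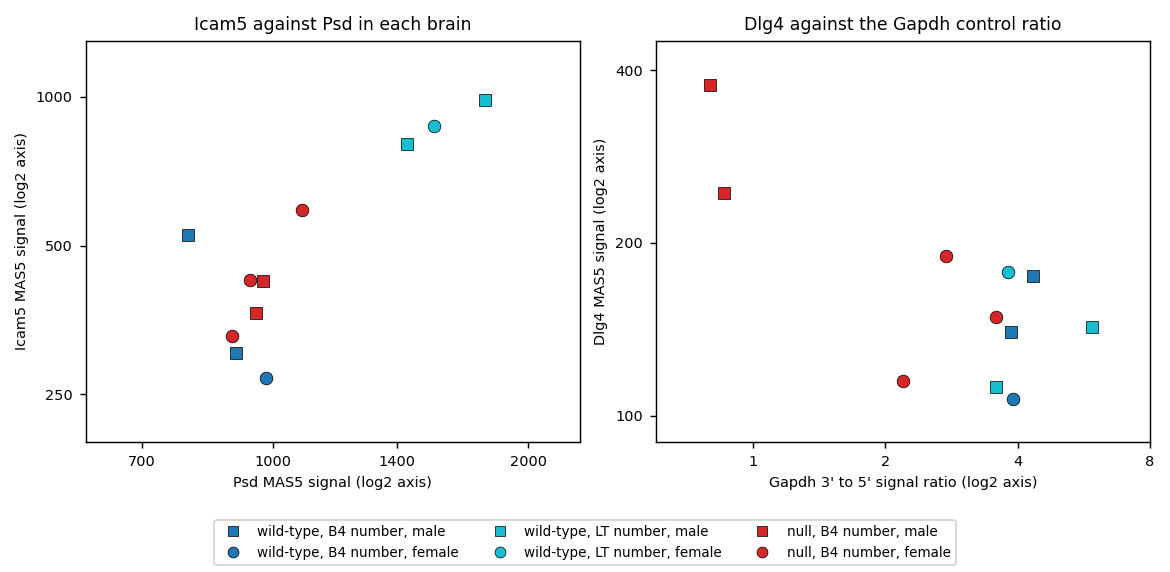
Left, Icam5 against Psd signal in each brain (log2 axes); right, Dlg4 signal against the Gapdh 3′ to 5′ ratio (log2 axes). The 3 wild-type LT brains stand apart at the upper right of the left plot, with Psd at 1437 to 1780 and Icam5 at 803.3 to 988.2, and the 2 male null brains at the upper left of the right plot, with Gapdh ratios of 0.859 and 0.798.

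Homer1, the metabotropic receptor adaptor, was measured by a dim probe set (104499_at) and a dimmer one (104498_at). The first gave 21.5, 17, 22.3, 45.5, 20.3 and 63.5 in wild-type brains 1 to 6. In null brains it gave 45.2 and 39.6 in the males and 23.8, 24.3 and 24.3 in the females. The highest 4 values, 39.6 to 63.5, were all from males, while the other 2 males (21.5 and 17) lay near the females, which held a narrow range of 20.3 to 24.3. In 7 of the 11 brains it read under 25.8, the signal that the mean had to reach for a test, and it passed through the other 4. Means were 31.7 ± 18.7 (SD, n = 6) for wild-type against 31.4 ± 10.2 (SD, n = 5) for null. The wild-type mean held 2 high LT males. The 3 wild-type B4 brains read 17 to 22.3 (20.3 ± 2.86, SD, n = 3), and all 5 null brains, also B4, lay above them at 23.8 to 45.2, a separation upward seen for 3.29% of probe sets. Among B4 mice alone the probe set was too dim to be tested. The genotype difference was 0.30 (SE 0.34, interval -0.44 to 1.03, limma adjusted p = 0.616), and 0.18 (SE 0.53) without the male null brains.

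Homer1 showed the widest sex difference of the 5 genes, -0.69 female minus male (SE 0.34, limma adjusted p = 0.427). It did not pass the threshold. No probe set passed in that comparison (0%), while an unadjusted p under 0.05 was reached by 12.4% of all probe sets and by none of the 5 genes. The sex difference of Dlg4 was -0.51 (SE 0.24, limma adjusted p = 0.411), and those of Cntn1 (0.03), Icam5 (-0.09) and Psd (0.05) were smaller than their SEs of 0.14, 0.34 and 0.21.

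The dim Homer1 probe set read 1.4, 2.7, 1.2, 9.6, 0.6 and 9.0 in the wild-type brains and 2.4, 31.1, 3.2, 1.0 and 2.4 in the null brains. Most of these values are under the floor of 3.1, and the probe set was too dim to be tested. Its 3 readings well above the floor came from wild-type 4, wild-type 6 and male null brain 2, in each of which the brighter probe set was high as well. The dimmer probe set lay under the floor in 7 of 11 brains, so the log2 ratio of the brighter over the dimmer one is set by the floor there. That ratio differed by -0.03 between null and wild-type brains, by 0.53 without male null brain 2, and no test is read from it. The sources used here do not pair either probe set with the long or the short form of Homer1.

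Cntn1, the contactin-1 gene (92936_at), had signals of 1077, 873.1, 867.6, 714, 691.3 and 737.6 in the wild-type brains. The null brains read 629.3 and 662.9 (males) and 818.6, 779.3 and 638.3 (females). The 3 wild-type B4 brains were the 3 highest of all, and the LT and null brains lay together below them. Wild-type brains averaged 827 ± 145 (SD, n = 6) and null brains 706 ± 87.1 (SD, n = 5). The genotype difference was -0.23 (SE 0.14, interval -0.54 to 0.08, limma adjusted p = 0.343). It was -0.06 (SE 0.20) without the male null brains and -0.43 (limma adjusted p = 0.116) among B4 mice alone, where the 3 wild-type values all lay above the 5 null values, as for 3.05% of probe sets. In none of these fits was Cntn1 called.

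Icam5, the telencephalin gene (92714_at), lies on chromosome 9, as does Chrnb4, the gene of the β4 subunit, but 405 protein-coding genes away. Its signals were 525.9, 302.9, 269.0, 988.2, 872.6 and 803.3 in the wild-type brains. The null brains read 364.6 and 423.6 (males) and 327.7, 424.8 and 589.8 (females). The wild-type brains fell into a low set, the 3 with B4 numbers, and a high set, the 3 with LT numbers, and the null brains overlapped the low set. Means were 627 ± 305 (SD, n = 6) and 426 ± 100 (SD, n = 5). The genotype difference of -0.39 (SE 0.34, interval -1.12 to 0.34, limma adjusted p = 0.499) was within the spread between brains. Its sign turned among B4 mice alone, to 0.28.

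Psd, the Arf6 exchange factor gene (103439_at), followed the same split of wild-type brains. It read 793.3, 904.6, 979.4, 1780, 1548 and 1437 in wild-type brains 1 to 6. In null brains it read 953.2 and 973 (males) and 894.6, 939.6 and 1080 (females). The null brains were tightly grouped at 968 ± 68.9 (SD, n = 5), inside the wild-type spread of 1240.4 ± 401 (SD, n = 6). The genotype difference was -0.31 (SE 0.21, interval -0.75 to 0.13, limma adjusted p = 0.373), -0.35 (SE 0.31) without the male null brains, and 0.10 among B4 mice alone.

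The wild-type brains were therefore compared by the letters of their animal numbers, 3 LT against 3 B4, with 2 males and 1 female on each side. This comparison was added after the values above had been seen, and it uses the same wild-type arrays as the genotype comparison. Icam5 and Psd were higher in the LT brains. Icam5 was 888 ± 93.4 in LT and 366 ± 140 in B4 wild-type brains (SD, n = 3 each), a log2 difference of 1.34 or 2.53-fold (SE 0.23, interval 0.83 to 1.85, limma adjusted p = 0.0425). Psd was 1588 ± 175 against 892 ± 93.6 (SD, n = 3 each), a difference of 0.83 or 1.78-fold (SE 0.14, interval 0.52 to 1.14, limma adjusted p = 0.042). These were 2 of the 5 genes, both higher, where 0.55% of all 7453 probe sets passed the threshold and 0.523% passed it as higher in LT. The split had been seen in these 2 genes before the fit, so their adjusted p and these shares give no independent support for it.

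For Icam5 and Psd the LT brains also stood above all 8 B4 brains of either genotype, as they did for 3.05% of probe sets. The 8 B4 brains read 269.0 to 589.8 for Icam5 (mean 403.5 ± 111) and 793.3 to 1080 for Psd (939.7 ± 82.2), so that no B4 brain, null or wild-type, reached the lowest LT value of 803.3 or 1437. In a fit of all 11 arrays with genotype and sex as covariates, the LT difference passed for Icam5 (limma adjusted p = 0.0448) and Psd (limma adjusted p = 0.0383). Every null mouse has a B4 number, so with genotype in that model the LT difference is still set by the wild-type brains. That fit is therefore no separate check of the comparison above.

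Cntn1 ran the other way, at 714 ± 23.2 in LT and 939 ± 119 in B4 wild-type brains (SD, n = 3 each). The difference of -0.39 (SE 0.14, interval -0.69 to -0.08, limma adjusted p = 0.263) did not pass the threshold, although the 3 LT values all lay below the 3 B4 values. That much separation was seen downward in 9.08% and upward in 9.34% of probe sets. Homer1 (104499_at) differed by 0.95 (SE 0.47, limma adjusted p = 0.427), with 2 LT males high and the LT female at 20.3. Dlg4 differed by 0.04 (SE 0.24, interval -0.48 to 0.57, limma adjusted p = 0.962). At an unadjusted p under 0.05 the comparison picked Icam5, Psd and Cntn1, 3 of the 5, beside 12.9% of all probe sets.

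**Figure D3:**
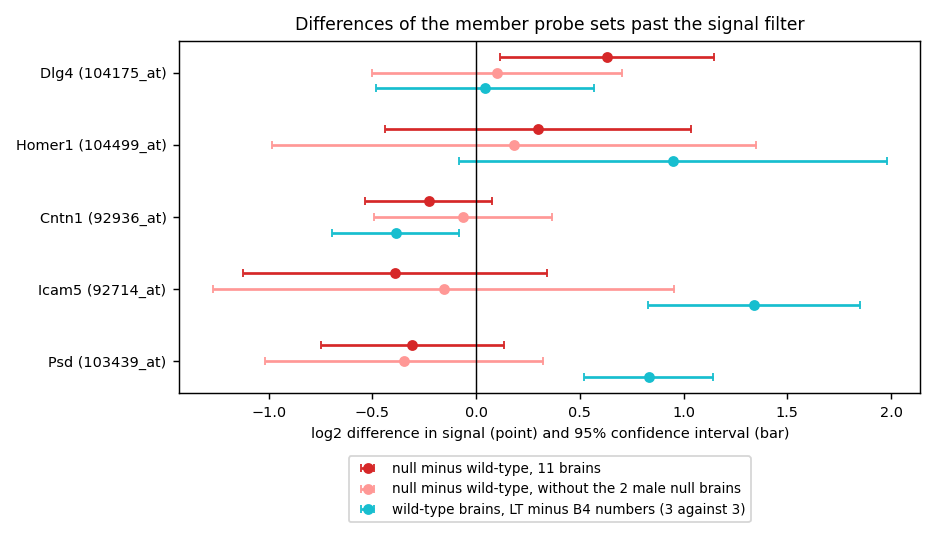
Log2 difference in signal (point) with its 95% confidence interval (bar) for the 5 probe sets past the filter on signal, in 3 comparisons. Red is null minus wild-type over 11 brains, pink the same without the 2 male null brains, and blue LT minus B4 among wild-type brains; the blue intervals of Icam5 (0.83 to 1.85) and Psd (0.52 to 1.14) lie wholly above 0.

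The letters cannot be told apart from age, since all LT mice were 6 weeks old and all B4 mice 7 to 9 weeks, nor from whatever set the BioB to BioC ratio apart on those arrays. Marker sums moved with the letters among wild-type brains: the LT brains had lower sums of 11 neuron markers (11468.4 to 14172.9 against 14327.0 to 14705.8) and of 10 astrocyte markers (7442.6 to 7939.8 against 8187.9 to 8615.9). They had higher sums of 11 microglial markers (1987.3 to 2218.2 against 1813.5 to 1930.7) and of 12 endothelial or mural markers (1687.8 to 1870.6 against 1345.7 to 1523.1). The 8 oligodendrocyte markers overlapped (6764.8 to 8672.2 against 5671.9 to 7627.1). Bright genes weigh most in such sums, and gene by gene the shifts were mixed for all but the oligodendrocyte markers. Of 12 tested endothelial or mural markers 5 were higher in LT (median log2 difference -0.04), and of 8 microglial markers 5 (0.11). Of 11 neuron markers 4 were higher (-0.21), and of 10 astrocyte markers 4 (-0.04). All 7 tested oligodendrocyte markers were higher in LT (0.35), each through its brightest probe set. Of these, 3 had an unadjusted limma p under 0.05, as 12.9% of all probe sets had in either direction, and 0 were called. Over every tested oligodendrocyte probe set 10 of 12 were higher (0.27). The part of these differences in the Icam5 and Psd values was not tested. The calls were near the threshold and both were lost without wild-type 2, 3, 4 or 6, and that of Psd also without wild-type 1. Without wild-type 4, the limma adjusted p was 0.225 for both genes, with log2 differences of 1.26 for Icam5 and 0.75 for Psd.

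The LT brains are all wild-type, and with the letters in the model the genotype differences of Icam5 and Psd were 0.28 and 0.11, opposite in sign to those above. The genotype difference of Cntn1 became -0.42 (limma adjusted p = 0.184), that of Homer1 0.77 (limma adjusted p = 0.258), and that of Dlg4 0.65 (limma adjusted p = 0.261). None was called.

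The 5 genes varied to unlike degrees and did not vary as a block. Over all 11 brains the coefficient of variation was 46.5% for the brighter Homer1 probe set, 46.3% for Icam5, 44.6% for Dlg4, 28.7% for Psd and 17.2% for Cntn1. Among the 5 null brains it was 7.12% for Psd and 12.3% for Cntn1, and 47.8% for Dlg4. Over all 11 brains Icam5 and Psd form separate clusters by letters, so no r is given there, and within the 8 B4 brains r was 0.07 (rho = 0.05; exact permutation p = 0.882 and 0.935). Among the 10 pairs of genes, Dlg4 and Icam5 had r = 0.21 (exact permutation p = 0.627, adjusted p = 0.919) and Dlg4 and Psd r = -0.03 (exact permutation p = 0.945, adjusted p = 0.945) in these 8 brains. The adjusted p for r of Icam5 and Psd was 0.945. Without the 2 brains farthest from the median of the gene named first, r was 0.34 for Dlg4 and Icam5, -0.47 for Dlg4 and Psd, and -0.43 for Icam5 and Psd. Homer1 and Cntn1 each separate the null from the wild-type B4 brains, upward and downward, so relations that involve them could not be tested apart from genotype with 5 and 3 brains. The strongest r were among these: -0.81 for Cntn1 and Psd, 0.75 for Dlg4 and Homer1, and -0.72 for Homer1 and Cntn1. Their exact permutation adjusted p was 0.158, 0.163 and 0.166, and without the 2 farthest brains r was -0.73, 0.01 and -0.45. For Homer1 and Cntn1 rho was -0.93 (exact permutation adjusted p = 0.0169). The other pairs with Homer1 or Cntn1 had r from -0.44 to 0.29. Without the 2 farthest brains they ran from -0.91 to 0.41. The lowest was Cntn1 and Icam5, which had r = -0.18 over the 8 brains and -0.23 without the male null brains.

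The genes whose log2 signal was most like each of the 5 were sought over the 9 brains without the male null pair, by Pearson r. For Icam5 they were Tbxa2r, the thromboxane receptor gene (r = 0.97), Ppp3r1, the regulatory subunit of calcineurin (0.97), and H2-Ke6 (0.97). For Psd they were St3gal5, the ganglioside GM3 synthase gene (0.99), Mrps34, a mitochondrial ribosomal protein gene (0.97), and Dbp, a clock-controlled transcription factor gene (0.96). For Homer1 they were Trpc1, a cation channel subunit gene (0.98), Zfp91 (0.97) and Tmed7 (0.96). For Cntn1 they were Traip (0.94), the kinase gene Pim1 (0.93) and Gm15772 (0.93), and for Dlg4 they were Usp34 (0.90), Cd34 (0.89) and Slc44a2 (0.88). These brains share the split by letters, and the best of all tested probe sets is high by choice, so the values are given as a description. Without the 2 brains farthest from the member's median, r stayed at 0.84 or more for all but Zfp91 (0.49) and Tmed7 (0.42). That check does not remove the whole LT set, so it cannot show whether r rests on the letters. Within the 6 B4 brains of these 9, r was 0.81, 0.73 and 0.74 for the genes named with Psd, and 0.97, 0.95 and 0.93 for those with Icam5. It was 0.92, 0.47 and 0.38 for those with Homer1, 0.96 to 0.98 with Cntn1 and 0.85 to 0.89 with Dlg4. The genes were chosen over brains that include these 6, so r within them is not independent of that choice. Over all 11 brains r was 0.22 for Traip, 0.49 for Pim1 and 0.17 for Tmed7, and 0.65 to 0.97 for the other 12 genes.

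Genes that work with the 5 were read from 6 lists, each gene through its brightest tested probe set. In the genotype comparison none of them was called (background 0.0268%). Of the scaffolds of the postsynaptic density, 17 of 32 genes were tested, 2 were higher and 2 lower at an unadjusted p under 0.05, where 13.4% of all probe sets were higher and 9.69% lower. The median difference was 0.05, against 0.03 over all probe sets. The extremes were Lin7b, a PDZ partner of the scaffold complex (1.05, limma adjusted p = 0.124), Abi1 (0.54), Dynll1, a dynein light chain gene (-0.32), and Ank3, the ankyrin-G gene (-0.68, limma adjusted p = 0.111). Wild-type brains averaged 51.9 ± 19.1 (SD, n = 6) for Lin7b, null brains 108 ± 52.8 (SD, n = 5). Without the male null brains the differences were 0.00015 for Lin7b, 0.65 for Abi1, 0.01 for Dynll1 and 0.07 for Ank3.

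Of the receptors and channels tied to Dlg4 or Homer1, 11 of 30 were tested, with 3 higher and 0 lower at an unadjusted p under 0.05 (13.4% and 9.69% over all probe sets) and a median of 0.21. Gria1, an AMPA receptor subunit gene, differed by 0.93 (limma adjusted p = 0.0941), with means of 168 ± 45.7 for wild-type (SD, n = 6) against 299 ± 131 for null (SD, n = 5), and by 0.62 without the male null brains. Kcna2, a potassium channel that PSD-95 can cluster, differed by 1.36 (limma adjusted p = 0.143), and was too dim to be tested without the male null brains. Cacng2, the stargazin gene whose product ties AMPA receptors to PSD-95, differed by -0.32, and Grin2c, an NMDA receptor subunit gene, by -0.40. Without the male null brains these were -0.51 and -0.37.

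Contactin family members and partners gave 8 tested of 19, with 0 higher and 2 lower at an unadjusted p under 0.05 (13.4% and 9.69% over all probe sets) and a median of -0.18. Ptprz1, a phosphatase that binds contactin-1, differed by -0.62 (limma adjusted p = 0.153) over 11 brains and by 0.16 without the male null brains. Notch1 differed by -0.56, Nrcam by -0.06 and Cntnap1, the paranodal partner of contactin-1, by 0.30. Without the male null brains these were -0.71, -0.0054 and 0.27. The Icam family and partners gave 9 tested of 18, with 2 higher and 4 lower, read against the same shares, and a median of -0.16. Actn1 and Actn4, α-actinin genes, differed by -0.52 and -0.46, and Msn, an ERM protein gene of dendritic filopodia, by 0.50. Vtn, the vitronectin gene, differed by 0.35. Without the male null brains these were 0.12 for Actn1, 0.01 for Actn4, -0.11 for Msn and -0.22 for Vtn.

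Of Arf6 exchange factors and partners, 15 of 26 were tested, with 2 higher and 2 lower at an unadjusted p under 0.05 (13.4% and 9.69% over all probe sets) and a median of 0.05. Cyth2, which like Psd is an Arf exchange factor, differed by -0.66 (limma adjusted p = 0.132), Rac1 by -0.49 (limma adjusted p = 0.105), Pld2 by 0.36 and Arf3 by 0.82 (limma adjusted p = 0.108). Without the male null brains these were -0.56, -0.18, -0.00042 and 0.21. Of kinases and actin regulators of the spine, 16 of 28 were tested, with 2 higher and 5 lower, read against the same shares, and a median of -0.16. Map2, the dendritic microtubule protein gene, had the largest difference, 1.98 (limma adjusted p = 0.0852), with means of 26.9 ± 8.91 for wild-type (SD, n = 6) against 123 ± 122 for null (SD, n = 5), and 0.55 without the male null brains. Cfl1, the cofilin gene, differed by 0.88 and then by -0.0022. Nrgn, the neurogranin gene, differed by -0.77 and Rhoa by -0.60, and by -0.17 and -0.19 without the male null brains.

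**Figure D4:**
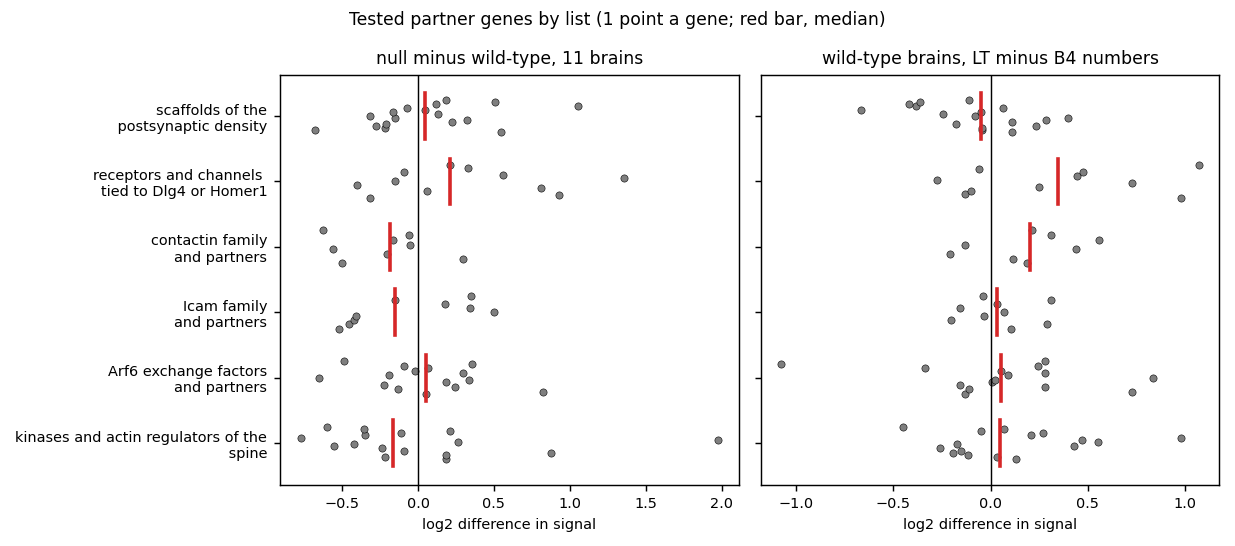
Log2 difference in signal of each tested partner gene (1 point a gene, placed by list) for null minus wild-type over 11 brains (left) and LT minus B4 among wild-type brains (right). Red bars are list medians, which run from -0.18 to 0.21 on the left and from -0.05 to 0.35 on the right.

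In the LT against B4 comparison none of the partner genes was called through its brightest probe set (background 0.55%). The medians were -0.05 for scaffolds, 0.35 for receptors and channels, 0.20 for the contactin list, 0.03 for the Icam list, and 0.05 for both the Arf6 list and the kinases, against -0.03 over all probe sets. Nearest the threshold was Cyth2, at 499 ± 76.2 in LT and 278 ± 24.97 in B4 wild-type brains (SD, n = 3 each), a difference of 0.83 (limma adjusted p = 0.0587). Next was Cacng2, at 352 ± 65.7 and 179 ± 35.01 (SD, n = 3 each), a difference of 0.98 (limma adjusted p = 0.0665). Trpc1 differed by 1.07 (limma adjusted p = 0.239), Nrgn by 0.98 (limma adjusted p = 0.142), Arf3 by 0.73 (limma adjusted p = 0.126) and Pld2 by -1.08 (limma adjusted p = 0.195). A dimmer Arf3 probe set was called, at 2.58 (limma adjusted p = 0.0425), so the probe sets of Arf3 disagree in size. Arf6 itself differed by -0.16 (limma adjusted p = 0.892).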

How the data were processed

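Biotin-labelled RNA from 11 whole brains was hybridised to 1 Affymetrix array each. The submitters' processing notes name MAS5 as the source of the deposited intensity values; version and settings are not given in the sources used here. Each array had a mean of 150.1 after 2% was trimmed from either end, and this scaling was kept. Probe sets were named from the platform annotation: 10855 carry 1 gene, 396 several and 1237 none, and only the first were named. Intensities were floored at the 10th percentile (3.1) and log2 values taken; 66 control probe sets, and those with a mean under the 40th percentile (25.8), were not tested. This left 7453, among them 5 of the 6 described. Between 7.76% and 11.9% of an array's values lay at the floor.

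limma 3.58.1 in R 4.3.3 (lmFit, eBayes with a trend, Benjamini-Hochberg over all 7453, threshold 0.05) was used for null minus wild-type with sex as covariate, female minus male, their interaction, and the genotype difference without the male null mice. The LT against B4 comparison and the fit of B4 mice without the male null mice were added after seeing the data. Single ratios were compared by two-sided exact permutation tests. The genes and lists were chosen with earlier results of these data known. From each partner list the 2 highest and 2 lowest genotype differences were to be named, and per gene the 3 probe sets most like it; in the LT comparison the names beyond these were chosen after their values were seen. On simulated data the genotype, sex, interaction and LT against B4 fits were checked for recovery of known changes. The fits within each sex, those of other subsets and the correlations were not simulated. The exact permutation test was checked on a small example with a known answer. Alternatives were scaling, floor, filter, covariates, subsets and leaving out each mouse. Upstream sequences were RefSeq's, on GRCm38.p6; the 5 genes all matched by symbol.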

Additional observations from a re-analysis of the deposited data

Results flagged for a closer look

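The dim Homer1 probe set (104498_at) read 31.1 in male null brain 2, against 1.0 to 3.2 in the other 4 null brains. The gap between that brain and the next, divided by the range of the null group on the log2 scale after the floor, was 0.986, above Dixon's critical value of 0.71 for 5 samples. Null brains 1, 4 and 5 lay under the floor and were raised to the same log2 value of 1.63, and null brain 3 was at 1.68. The ratio is therefore set by the floor, so the check cannot decide whether male null brain 2 stands apart. In 14 such checks this was the 1 value flagged, and chance gives about 1 in 20. The brighter Homer1 probe set read 39.6 in the same brain, within the range of the others. The cause was not tested.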

How the results depend on the processing

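No paired analysis was possible because the replicate numbers follow accession order and pair no mice. For null minus wild-type, none of the 5 genes was called except Dlg4, within males (count 1) and in the fit without wild-type 5 (0.88, limma adjusted p = 0.0309, where 873 probe sets were called in all); leaving out each mouse gave counts of 0 to 1. All probe sets called numbered 2, but 29 in B4 mice, 2433 within males and 1 to 873 without 1 mouse. Signs turned for Icam5 with age (0.17), letters (0.28), the Gapdh ratio (0.14), B4 mice alone (0.28), these without male null mice (0.69, where 3 null females face 1 wild-type female and which carries no weight), and letters without male null mice (0.51). They turned for Psd with age (0.16), letters (0.11), B4 mice alone (0.10) and letters without male null mice (0.069). For the sex difference they turned for Cntn1 (quantile -0.020, without male null mice -0.12, Gapdh -0.022), Psd (quantile -0.028, age -0.28, Gapdh -0.0096) and Icam5 (median centring 0.10), with ranges without 1 mouse of -0.016 to 0.14, -0.095 to 0.17 and -0.37 to 0.31. For the interaction they turned for Psd (median centring 0.14) and Icam5 (Gapdh -1.27), with ranges without 1 mouse of -0.40 to 0.26, -0.40 to 1.29 and, for Homer1, -0.55 to 0.086; Dlg4 was called only without wild-type 3 (limma adjusted p = 0.0444), so counts were 0 to 1. Probe sets called by the interaction, 1187 in all, fell to 0 with the Gapdh ratio as covariate, a ratio that itself sets the male null brains apart. Of LT minus B4, 2 genes were called, but 0 after quantile normalization, 1 after median centring, 0 without the filter, 0 with the Gapdh ratio, and 0 to 2 without 1 mouse. Icam5 kept its call in 6 of 13 alternatives (limma adjusted p 0.00494 to 0.262) and Psd in 4 of 13 (0.0251 to 0.225), each with its sign kept; Dlg4 ranged from -0.14 to 0.21. Probe sets called, 41 in all, ranged from 0 to 160 without 1 mouse. The Gapdh ratio difference was -1.24 in B4 mice (exact permutation p = 0.0714) and -1.55 to -1.01 without 1 mouse; the Homer1 ratio, set by the floor in 7 brains, was -0.03 over all (exact permutation p = 0.970), 0.30 without male null mice (exact permutation p = 0.0714), -0.35 to 0.53 without 1 mouse, and 0.53 without null 2 (exact permutation p = 0.00476, the smallest possible), so it supports no call. The causes were not tested. Signals near the floor understate a fold, which limits the Homer1 values; the brighter Homer1 probe set could not be tested in 3 of 27 genotype alternatives.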
